A study of Homo sapiens with 39 samples.

Results

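Guides against RB1, CDKN2A, CDKN2C, CDKN1B, CCND1, CDK4, CDK6, CDK2, CCNE1 and DYRK1A, 10 genes that set the passage of a cell from G1 into S phase, were followed through pooled CRISPR knockout screens. Members were found by guide name, which is a gene symbol followed by a guide number. In the epigenetic library 9 of the 10 genes were found with 10 guides each, 90 of 12214 guides. In the whole-genome library all 10 genes were found with 4 guides each, 40 of 77441 guides, so CCNE1 was measured in that library alone. All 90 and all 40 guides passed the filter on low counts. The cells were A375, a human melanoma line with an activating BRAF mutation, and every screen was run in cells that already lacked a subunit of Mediator, the complex that links transcription factors to RNA polymerase II. The epigenetic library was screened in MED23 KO cells, taken at day 0 and after 14 days in 1 µM vemurafenib or in DMSO. In MED12 KO cells both libraries were screened, with cells taken at day 0 and after 8 and 14 days in 2 µM vemurafenib or in DMSO. Vemurafenib inhibits mutant BRAF and DMSO is its solvent. The 13 groups held 3 libraries each, 39 in all. The labels do not say whether a knockout line was 1 clone, whether replicates were separate infections, or how much of each protein was left, and no cells with intact Mediator were analysed here.

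In cycling cells, D-type cyclins such as cyclin D1 (CCND1) bind CDK4 and CDK6 and start the phosphorylation of the retinoblastoma protein (RB1), which in its active form holds E2F transcription factors silent. Cyclin E1 (CCNE1) with CDK2 completes that step and starts DNA replication. The INK4 proteins p16 (CDKN2A) and p18 (CDKN2C) block CDK4 and CDK6, p27 (CDKN1B) blocks CDK2 complexes, and the kinase DYRK1A marks cyclin D for decay and starts assembly of the DREAM repressor complex, which favours exit from the cycle. In BRAF-mutant melanoma the MAPK pathway drives cyclin D1 expression, and A375 is catalogued as carrying a truncated CDKN2A. CDKN2A also encodes p14ARF, a stabiliser of p53, and the guide names do not tell which reading frame a guide hits.

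Read totals per library ran from 22846325 to 28994690 in MED23 KO cells, from 16385695 to 20814734 in MED12 KO cells with the epigenetic library, and from 47766947 to 87591804 with the whole-genome library. The MED23 KO vemurafenib libraries were skewed, since the guide CUL3_10 held 6.61, 9.67 and 15.2% of their reads. In DMSO there the most abundant guide held at most 0.114% of the reads. Reads come from PCR without molecular identifiers, so they are not independent molecules, and p-values measure the spread between these libraries, which may be technical. Levels are given in CPM, the reads of a guide relative to the TMM-scaled total of its library, summed over the guides of a gene. For a difference, each guide has a log2 fold change and the gene its median. The gene score is the mean over guides of log2(CPM + 0.5), and its change is given ± SE with 3 libraries per group. Guides were tested with edgeR and ranked against all other guides that target genes (robust rank aggregation, RRA), with a threshold of 0.05 on the adjusted p (Benjamini-Hochberg over all genes). Each comparison of 2 groups was repeated under 12 alternatives and each difference between effects under 18. The scale matters for growth. From day 0 to day 14 in DMSO, the 797 guides named CTRL or Zhang, which carry no gene name, had a median log2 fold change of 1.18 in MED23 KO cells and 0.59 in MED12 KO cells, against all-gene medians of 0.06 and 0.16. The 267 guides to the AAVS1 safe-harbour locus had medians of 0.42 and 0.38. The labels do not state whether CTRL and Zhang guides cut the genome. An increase against other genes is therefore not the same as an increase against control guides, and the second is given below for part of the comparisons. Scaling on the control guides moved the median of all genes by -1.02 in MED23 KO cells and by -0.63 in MED12 KO cells in this comparison.

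Guides to RB1 increased during growth in DMSO in both knockouts, with the highest median of the 9 genes in each. In MED23 KO cells RB1 guides summed to 1115, 945 and 1233 CPM at day 14 in DMSO, against 503, 509 and 525 CPM at day 0. All 3 grown libraries lay above all 3 starting libraries. The share of all genes separated in this way is not given here for comparisons with day 0, so separation from day 0 is description only. The median log2 fold change was 1.13, with 9 of 10 guides above 0 and a score change of 0.95 ± 0.12 (edgeR/RRA adjusted p = 0.00280). This was 0.71 above the AAVS1 median and 0.04 below the median of CTRL and Zhang guides. With MED12 deleted, the sums were 958, 929 and 951 CPM at day 0, 2453, 2129 and 2272 CPM at day 8 in DMSO, and 4833, 4264 and 4256 CPM at day 14 in DMSO. The 3 time points did not overlap. All 10 guides were above 0 at both times, with medians of 1.05 at day 8 (edgeR/RRA adjusted p = 1.69e-06) and 1.91 at day 14 (score change 1.49 ± 0.18, edgeR/RRA adjusted p = 1.36e-06). At day 14 this was 1.32 above the CTRL and Zhang median, and 7 of the 10 guides exceeded the 95% quantile of those guides.

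RB1 guides rose further in vemurafenib in MED23 KO cells. The sums were 2725, 5302 and 3466 CPM in vemurafenib at day 14, against 1115, 945 and 1233 CPM in DMSO. The groups did not overlap, and replicate 2 of the treated libraries was the highest. In 35.8% of the 1115 genes all 3 gene scores in vemurafenib lay above all 3 in DMSO. The median log2 fold change was 1.66 with 9 of 10 guides above 0, and the score change was 1.35 ± 0.29 (edgeR/RRA adjusted p = 0.00267, below 0.05 in 12 of 12 alternatives). RB1 and DYRK1A were the 2 members of 9 that passed in this comparison, in opposite directions, where 10.8% of the 1115 genes passed in either direction. RB1_7 was the exception among the RB1 guides, with a log2 fold change of -0.76. Against day 0 the vemurafenib libraries gave a median of 2.60 and a score change of 2.30 ± 0.27 (edgeR/RRA adjusted p = 7.52e-09), and all 10 guides passed the adjusted threshold singly, where 13.1% of all guides did so upward.

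The difference between drug and DMSO for RB1 did not pass in MED12 KO cells. At day 8 the sums were 2402, 2363 and 2292 CPM in vemurafenib and 2453, 2129 and 2272 CPM in DMSO, which overlapped. At day 14 they were 7796, 8810 and 6449 CPM in vemurafenib and 4833, 4264 and 4256 CPM in DMSO, which did not overlap as sums. The gene scores of the same libraries did overlap. The share of all genes separated upward is not given for this comparison, so the separation of sums is description only. Within replicate numbers 1, 2 and 3 the vemurafenib library was higher by 0.69, 1.05 and 0.60 on the log2 scale of summed CPM. The median was 0.46, with 9 of 10 above 0 and a score change of 0.32 ± 0.32 (edgeR/RRA adjusted p = 0.903). With counts summed per gene before the test, which lets the most abundant guides dominate, the log2 fold change was 0.79 (edgeR adjusted p = 0.000766). In replicate 2 in vemurafenib 1 guide, RB1_4, held 58.4% of the RB1 reads, and RB1_10 ran against the rest with a log2 fold change of -1.36. The drug effect at day 14 minus that at day 8 had a median of 0.50 (edgeR/RRA adjusted p = 0.424), and RB1 passed once the replicate number was a block (edgeR/RRA adjusted p = 0.0223). With the block 10 of the 1115 genes passed upward and 2 downward. Without it 0.538% of all genes passed, and 0 of the 9 members, of which DESeq2 also called 0. Against day 0 the vemurafenib libraries of day 14 gave a median of 2.63 and a score change of 1.81 ± 0.28 (edgeR/RRA adjusted p = 2.76e-06).

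Single RB1 guides were compared between the knockouts. Over the 10 guides, the log2 fold changes of vemurafenib at day 14 against day 0 in MED23 KO and in MED12 KO cells had a Pearson correlation of 0.79, given as a description of guides that share target and library. RB1_4, RB1_6, RB1_8 and RB1_9 reached 2.80, 3.64, 3.28 and 4.15 in MED23 KO cells and 4.18, 3.50, 3.21 and 3.03 in MED12 KO cells. RB1_5 had 2.88 in MED23 KO cells and 2.56 in MED12 KO cells. RB1_1 and RB1_7 were the weakest in MED23 KO cells at 0.95 and 0.63, and had 0.80 and 0.81 in MED12 KO cells, where RB1_10 was the weakest at 0.19. In 7 of the 10 guides the value exceeded 1 in both.

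Among the CDK inhibitors, CDKN1B and CDKN2C guides increased during growth in MED12 KO cells, and CDKN2A and CDKN2C guides passed upward during growth in MED23 KO cells. With MED12 deleted, 4 of the 9 genes passed upward and 0 downward between day 0 and day 14 in DMSO (RB1, CDKN1B, CDKN2C and DYRK1A), where 5.2% of all genes passed in either direction, 2.78% upward and 2.42% downward. These 4 genes also passed at day 8, where 7.89% of genes did, 2.96% upward and 4.93% downward. For vemurafenib at day 14 against day 0 they passed once more, where 3.23% of genes did, 2.24% upward and 0.987% downward. From the CTRL and Zhang median, the day-14 DMSO medians differed by 0.36 for CDKN1B, 0.21 for CDKN2C and 0.41 for DYRK1A. For CDKN2A, which did not pass there, the difference was 0.29.

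CDKN1B, which encodes p27, had 945, 904 and 986 CPM at day 0, 1524, 1545 and 1773 CPM at day 8 in DMSO, and 2269, 2436 and 3161 CPM at day 14 in DMSO in MED12 KO cells. The 3 time points did not overlap, and all 10 guides were above 0 at both times. The median log2 fold change was 0.65 at day 8 (edgeR/RRA adjusted p = 2.67e-05) and 0.95 at day 14 (score change 1.10 ± 0.19, adjusted p = 0.000262). The day-8 call was lost with counts summed per gene (edgeR adjusted p = 0.106). In vemurafenib at day 14 CDKN1B guides summed to 3074, 2961 and 5620 CPM, and against DMSO the median was 0.55 with 9 of 10 guides above 0, which did not pass (edgeR/RRA adjusted p = 1). As groups they overlapped, since replicate 3 in DMSO stood above replicates 1 and 2 in vemurafenib. Within each replicate number the vemurafenib library was the higher, by 0.44, 0.28 and 0.83 on the log2 scale of summed CPM, and the gene did not pass with that number as a block (0.950). Relative to day 0 the median in vemurafenib was 1.95 (score change 1.47 ± 0.30, edgeR/RRA adjusted p = 0.00343), and 1.26 without replicate 3 in vemurafenib.

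With MED23 deleted, CDKN1B did not pass in DMSO growth. It had 715, 812 and 835 CPM at day 14 in DMSO, against 570, 591 and 602 CPM at day 0, with a median of 0.65 and an edgeR/RRA adjusted p of 0.325. That median differed by 0.228 from the AAVS1 median and by -0.525 from the CTRL and Zhang median. Of the 10 guides, 7 lay below the 5% quantile of CTRL and Zhang guides. In vemurafenib CDKN1B guides had 3877, 1661 and 1366 CPM, all above the DMSO libraries, a separation found in 35.8% of genes by gene score. The difference from DMSO had a median of 1.02 (edgeR/RRA adjusted p = 0.205, and 0.0133 with counts summed per gene). Summed counts called 244 genes upward and 41 downward in that comparison. The highest library, replicate 1, owed 69.5% of its CDKN1B reads to a single guide, CDKN1B_3, at 2696 CPM. Relative to day 0 the median in vemurafenib was 1.72 with 8 of 10 guides above 0 and 7 of 10 guides passing singly (score change 1.16 ± 0.09, edgeR/RRA adjusted p = 0.000147), and it was 0.76 above the CTRL and Zhang median. Between the knockouts the 10 CDKN1B guides had a Pearson correlation of 0.86 for vemurafenib against day 0, again as a description.

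CDKN2C, which encodes p18, had 970, 980 and 1007 CPM at day 0, 1472, 1354 and 1342 CPM at day 8 in DMSO and 1926, 1705 and 1567 CPM at day 14 in DMSO in MED12 KO cells. All 10 guides were above 0 at both times, with medians of 0.49 (edgeR/RRA adjusted p = 1.55e-05) and 0.80 (score change 0.76 ± 0.02, adjusted p = 0.0114). The day-14 call was lost with scaling on control guides (edgeR/RRA adjusted p = 0.216), and without replicate 1 of day 0 (0.0641), replicate 1 of the DMSO libraries (0.0977) or replicate 3 of them (0.0717). In vemurafenib the sums at day 14 were 1760, 2202 and 1890 CPM, which overlapped DMSO. Against day 0 the vemurafenib median was 0.97 (edgeR/RRA adjusted p = 0.0427), and that call was lost with DESeq2 (0.0546), with scaling on control guides (0.372) and without replicate 2 of day 0 (0.0697), replicate 2 in vemurafenib (0.295) or replicate 3 in vemurafenib (0.214).

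CDKN2C in MED23 KO cells had 3036, 1695 and 1034 CPM in vemurafenib, 1146, 1329 and 1067 CPM in DMSO and 737, 663 and 680 CPM at day 0. The drug and DMSO groups overlapped, and CDKN2C_10 alone made 45.2% of the reads in the highest library. Against day 0 the median was 1.10 in vemurafenib with all 10 guides above 0 (edgeR/RRA adjusted p = 9.08e-06) and 0.93 in DMSO (adjusted p = 0.0111). The DMSO call was lost without replicate 2 of the DMSO libraries (0.188) and with counts summed per gene (0.0893). The DMSO median lay 0.50 above the AAVS1 median and 0.25 below that of the CTRL and Zhang guides.

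CDKN2A guides, against p16 and p14ARF, had 917, 890 and 936 CPM in DMSO at day 14 and 553, 625 and 586 CPM at day 0 in MED23 KO cells, without overlap. The median log2 fold change was 0.94 with 9 of 10 guides above 0 (score change 0.60 ± 0.06, edgeR/RRA adjusted p = 0.00342). That median differed by 0.521 from the AAVS1 median and by -0.232 from the CTRL and Zhang median. In vemurafenib the sums were 872, 971 and 817 CPM, which overlapped DMSO. Against day 0 the vemurafenib median was 0.71 (edgeR/RRA adjusted p = 0.0182), and the call was lost without replicate 2 (0.407) or replicate 3 in vemurafenib (0.0679) and with scaling on control guides (0.215). In MED12 KO cells all 10 guides were above 0 at day 14 in DMSO with a median of 0.88, yet CDKN2A did not pass (edgeR/RRA adjusted p = 0.122, and 0.000101 with counts summed per gene). Its sums there were 2094, 1949 and 2075 CPM at day 14 in DMSO, against 951, 915 and 964 CPM at day 0. In vemurafenib at day 14 against day 0 the median was 0.74 (edgeR/RRA adjusted p = 0.947, and 4.29e-05 with counts summed per gene). At day 8 it had an edgeR/RRA adjusted p of 0.0804, which became 0.0268 with the replicate number as a block and 0.0464 without replicate 3 of the DMSO libraries. The difference between drug and DMSO had medians of -0.06 in MED23 KO cells and 0.02 in MED12 KO cells and passed in neither.

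The sign of 3 of these growth values in MED23 KO cells follows the scale. With libraries scaled on control guides, the medians of DMSO growth were -0.078 for CDKN2A, -0.098 for CDKN2C and -0.195 for DYRK1A, and those of vemurafenib against day 0 were -0.503 for CDKN2A and -0.121 for CDKN2C. RB1 kept a positive median of 0.11 in DMSO and 1.39 in vemurafenib. On the original scale 4 members passed upward and 2 downward in DMSO growth, where 18.4% of genes passed in either direction, 5.74% upward and 12.6% downward. On control guides 4 passed upward and 1 downward, the direction being that of the rank among other genes. For vemurafenib against day 0 the split was 4 upward and 1 downward, where 16.3% of genes passed, 6.01% upward and 10.3% downward, and on control guides 3 upward and 0 downward.

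CCND1 and CDK6, the cyclin and 1 of its kinases, were depleted during growth in MED23 KO cells. CCND1 guides had 186, 200 and 220 CPM in DMSO at day 14, against 607, 579 and 606 CPM at day 0. All 10 guides were below 0, 8 of them past the threshold singly where 21.8% of all guides did so downward. The median was -2.58 and the score change -2.39 ± 0.04 (edgeR/RRA adjusted p = 0.0143, below 0.05 in 12 of 12 alternatives). CDK6 guides had 152, 204 and 153 CPM in DMSO, against 499, 499 and 482 CPM at day 0, with a median of -2.09, all 10 guides below 0 and a score change of -1.79 ± 0.03 (edgeR/RRA adjusted p = 0.0245). The CDK6 call was lost with scaling on control guides (0.0794) and without replicate 2 (0.0510) or replicate 3 (0.0580) of the DMSO libraries. Neither gene overlapped its starting group.

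Both genes stood higher in vemurafenib than in DMSO in MED23 KO cells, though neither passed. CCND1 had 392, 324 and 328 CPM in vemurafenib, against 186, 200 and 220 CPM in DMSO, with no overlap. All 10 guides were above 0 with a median of 1.51 and a score change of 1.46 ± 0.11, and the gene missed the threshold (edgeR/RRA adjusted p = 0.210). It passed with counts summed per gene (0.000679) and without replicate 1 of the DMSO libraries (0.00426). Summed counts called 244 genes upward and 41 downward in this comparison, against 87 and 33 without summing. The 5 to 95% range of all gene medians in this comparison was -0.33 to 1.51, so CCND1 lay at its upper edge. CDK6 had 217, 257 and 255 CPM in vemurafenib against 152, 204 and 153 CPM in DMSO, also without overlap, with a median of 0.45 (edgeR/RRA adjusted p = 0.541, and 0.0229 with summed counts). Such separation was common, since in 35.8% of the 1115 genes all 3 gene scores in vemurafenib lay above all 3 in DMSO. Against day 0, CDK6 in vemurafenib still passed downward (median -1.14, edgeR/RRA adjusted p = 0.00550, and 0.197 with scaling on control guides), and CCND1 had a median of -0.997 with all 10 guides below 0 and did not pass (0.328, and 0.000374 with counts summed per gene).

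In MED12 KO cells CCND1 and CDK6 had medians below 0 at day 14 in DMSO and neither passed. CCND1 had 238, 539 and 181 CPM in DMSO at day 14, against 453, 410 and 423 CPM at day 0. Replicate 2 stood above the starting level while the other 2 libraries were below it, and in that library CCND1_7 held 55.4% of the gene's reads, at 299 CPM. The median was -1.05 (score change -1.50 ± 0.27, edgeR/RRA adjusted p = 0.0808). CDK6 had 195, 434 and 503 CPM in DMSO and 334, 352 and 359 CPM at day 0, with a median of -1.36 (score change -1.59 ± 0.27, edgeR/RRA adjusted p = 0.449). With the replicate number as a block, CDK6 passed in DMSO at day 14 (0.0430) and at day 8 (0.0233) and in vemurafenib at day 14 against day 0 (0.0174). In replicate 3 in vemurafenib, CDK6_2 stood at 347 CPM, against 17.8 and 1.34 CPM in replicates 1 and 2, and the gene's sums were 190, 156 and 763 CPM.

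Vemurafenib against DMSO gave CCND1 a positive median in MED12 KO cells as well, 0.31 at day 8 with 9 of 10 guides above 0 and 0.65 at day 14 with 8 of 10. Neither passed (edgeR/RRA adjusted p = 0.403 and 1). The level at day 14 was 427, 823 and 328 CPM in vemurafenib and 238, 539 and 181 CPM in DMSO, and the groups overlapped. Within each replicate number the vemurafenib library was the higher, by 0.84, 0.61 and 0.86 on the log2 scale of summed CPM.

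CDK4 passed in none of the comparisons. In MED23 KO cells its guides had 414, 501 and 622 CPM in vemurafenib, 513, 536 and 404 CPM in DMSO and 595, 613 and 632 CPM at day 0, and the drug and DMSO groups overlapped. The median was -0.41 for DMSO growth and 0.27 for vemurafenib against DMSO (edgeR/RRA adjusted p = 1 for both). In MED12 KO cells the sums lay above day 0 in all 3 DMSO libraries of day 14, with 996, 1374 and 780 CPM at day 14 in DMSO against 471, 498 and 538 CPM at day 0, but the median was 0.53 (edgeR/RRA adjusted p = 0.984). That median differed by 0.144 from the AAVS1 median and by -0.059 from the CTRL and Zhang median. CDK4_2, singled out after its values were seen, had 609 and 731 CPM in replicates 1 and 2 and 67.1 CPM in replicate 3. With counts summed per gene CDK4 had a log2 fold change of 1.06 (edgeR adjusted p = 0.00296) for DMSO growth and of 1.20 (0.000552) for vemurafenib against day 0.

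CDK2, the kinase partner of cyclin E, was depleted by vemurafenib in MED12 KO cells. At day 8 its guides had 398, 393 and 399 CPM in vemurafenib, against 485, 521 and 528 CPM in DMSO. At day 14 they had 492, 441 and 331 CPM in vemurafenib, against 550, 654 and 610 CPM in DMSO. The groups did not overlap at either time, and neither did the gene scores. Scores in vemurafenib lay below all scores in DMSO for 3.05% of genes at day 8 and 3.68% at day 14. CDK2 was the 1 member of 9 that passed at each time, where 1.7% of genes passed at day 8 and 1.43% at day 14. The median was -0.31 at day 8 with 9 of 10 guides below 0 (edgeR/RRA adjusted p = 0.0223) and -0.83 at day 14 with 7 of 10 below 0 (adjusted p = 0.0217). At day 14, 6 of the 10 guides lay below the 5% quantile of CTRL and Zhang guides. At both times 0 of the 10 CDK2 guides passed the adjusted threshold singly, and the share of all guides that did is not given here. CDK2_6 was lowest with a log2 fold change of -2.05, while CDK2_9 and CDK2_5 had 0.45 each.

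Single libraries decided these calls. The day-14 call held in 7 of 12 alternatives and was lost with counts summed per gene (edgeR adjusted p = 0.0953), without replicate 1 (0.100) or 3 (0.145) in DMSO, and without replicate 1 (0.202) or 2 (0.234) in vemurafenib. Where the call was lost on leaving out a library the median was -0.68, -0.43, -0.73 and -0.70 in that order. It was -0.44 without replicate 2 in DMSO and -0.46 without replicate 3 in vemurafenib, where the call held. The day-8 call held in 8 of 12 and was lost with summed counts (1), without replicate 1 (0.164) or 3 (0.293) in DMSO, and without replicate 1 in vemurafenib (0.506), with medians of -0.36, -0.35 and -0.38 without those libraries and of -0.165 without replicate 3 in vemurafenib, where the call held. The drug effects at days 8 and 14 differed by a median of -0.37 (edgeR/RRA adjusted p = 0.198). Against day 0, CDK2 in vemurafenib at day 14 had a median of -0.26 and a score change of -0.82 ± 0.09 and did not pass (0.0710). It passed with the replicate number as a block (0.0189), without replicate 1 (0.0405) or 2 (0.0477) of day 0 and without replicate 3 in vemurafenib (0.0287).

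CDK2 in MED23 KO cells had a median of the opposite sign. Its guides had 485, 571 and 858 CPM in vemurafenib, against 355, 432 and 399 CPM in DMSO, without overlap, as in 35.8% of genes by gene score, and 9 of 10 guides were above 0 with a median of 0.58 (score change 0.62 ± 0.15, edgeR/RRA adjusted p = 0.264, and 0.0298 with counts summed per gene). Summed counts called 244 genes upward and 41 downward in that comparison. In the highest library, replicate 3 in vemurafenib, CDK2_2 made 45.0% of the reads. Signs agreed between the knockouts in 2 of the 10 CDK2 guides. In DMSO growth CDK2 had a median of -0.35 in MED23 KO cells (edgeR/RRA adjusted p = 0.774, and 0.0264 with counts summed per gene).

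DYRK1A guides increased in DMSO in both knockouts and stood lower in vemurafenib than in DMSO in MED23 KO cells. There they had 614, 795 and 614 CPM in vemurafenib, 1062, 961 and 998 CPM in DMSO, and 610, 571 and 591 CPM at day 0. The vemurafenib libraries all lay below the DMSO libraries. Their lowest sum, 614 CPM, was barely above the highest at day 0, 610 CPM. The share of all genes separated downward between drug and DMSO is not given here, so this separation is description only. Against DMSO all 10 guides were below 0, from -1.33 to -0.21, with a median of -0.53 and a score change of -0.62 ± 0.10 (edgeR/RRA adjusted p = 0.000118, below 0.05 in 12 of 12 alternatives). DMSO growth gave a median of 0.83 with 9 of 10 guides above 0 (edgeR/RRA adjusted p = 0.00153), and vemurafenib against day 0 gave 0.15 (0.987). The DMSO median was 0.41 above the AAVS1 median and 0.35 below that of the CTRL and Zhang guides. For vemurafenib against day 0 the median differed by -0.17 from the AAVS1 median and by -0.817 from the CTRL and Zhang median.

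DYRK1A in MED12 KO cells had 780, 738 and 807 CPM at day 0, 1209, 1171 and 1134 CPM at day 8 in DMSO and 1693, 1480 and 1513 CPM at day 14 in DMSO. The medians were 0.59 at day 8 (edgeR/RRA adjusted p = 0.00325) and 1.00 at day 14 (adjusted p = 0.0105), each with 9 of 10 guides above 0, the exception being DYRK1A_5. In vemurafenib the sums were 994, 1085 and 986 CPM at day 8, all below DMSO, though the gene scores overlapped. By gene score 3.05% of all genes were separated downward at day 8. At day 14 the sums in vemurafenib were 1561, 1825 and 1388 CPM, which overlapped DMSO. Drug against DMSO had medians of -0.18 at day 8 (edgeR/RRA adjusted p = 0.598) and 0.10 at day 14 (1). Against day 0 the day-14 vemurafenib median was 1.14 (edgeR/RRA adjusted p = 0.0427). That call was lost with DESeq2 (0.0517), with scaling on control guides (0.186) and without replicate 2 of day 0 (0.0652) or replicate 1 (0.0512) or 2 (0.529) in vemurafenib.

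The difference between the knockouts was tested as 1 contrast, the effect in MED23 KO cells minus that in MED12 KO cells. For the vemurafenib effect 0 of 9 members passed, where 4.22% of genes did, and 3 of the 9 had an unadjusted p under 0.05, as did 12.9% of genes. DYRK1A came nearest, with a median of -0.90, all 10 guides below 0 and a score difference of -0.66 ± 0.19 (unadjusted p = 0.00221, edgeR/RRA adjusted p = 0.0504). It passed with counts summed per gene (0.0305), with the replicate number as a block (0.0125), without replicate 3 of the MED12 KO DMSO libraries (0.0256) and without replicate 2 of the MED23 KO vemurafenib libraries (0.0372). The block result has little meaning here, since MED23 KO DMSO libraries 1 and 2 do not pair by number. Among all genes the block called 43 upward and 13 downward. CDK2 had a median of 0.82 and a score difference of 1.28 ± 0.17 (edgeR/RRA adjusted p = 0.227, and 0.0439 with summed counts), and RB1 a median of 1.01 (0.195). DESeq2 called 0 members and summed counts 2. Among all genes, summed counts called 29 upward and 28 downward. For DMSO growth 0 of 9 passed, where 5.92% of genes did, and 0 had an unadjusted p under 0.05, against 16.8% of genes. DESeq2 called 0 there and summed counts called CDK4 (-1.31, edgeR adjusted p = 0.00766). Among all genes, summed counts called 7 upward and 144 downward there. Concentration and knockout differ together here, so their parts cannot be told apart.

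In the whole-genome library 0 of 10 members passed in any of the 6 comparisons with edgeR and RRA. Of the 19101 genes, 0.152% passed in DMSO growth at day 14, 0.262% at day 8 and 0.0524% in vemurafenib at day 14 against day 0. For vemurafenib against DMSO 0% passed at day 14, 0.0262% at day 8, and 0% for the difference between those times. In simulated counts of the day-14 drug comparison the same procedure found 0% of genes changed by 1 and 12.4% of those changed by 2 on the log2 scale, so few changes of this size would be called. DESeq2 called 0 members in each comparison, and counts summed per gene called RB1 upward in DMSO growth (log2 fold change 2.82, edgeR adjusted p = 0.0398) and in vemurafenib against day 0 (3.39, 0.00623). Such calls were far more common with summed counts. Among all genes they numbered 245 upward and 31 downward in DMSO growth, and 3396 upward and 158 downward in vemurafenib against day 0. Unadjusted p values under 0.05 were found for RB1, CCND1 and CDK6 in DMSO growth at day 14 and at day 8, where 7.7% and 8.09% of genes had one, and for RB1 and CDK6 in vemurafenib against day 0, where 6.72% did. For vemurafenib against DMSO they were found for CCND1 at day 14 (5.25% of genes), for CCND1 and CDK2 at day 8 (5.61%) and for CCND1 in the difference between those times (5.34%).

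RB1 had 68.2, 45.8 and 57.9 CPM at day 0, 198, 99.0 and 174 CPM at day 8 in DMSO and 538, 203 and 476 CPM at day 14 in DMSO in that library. The 3 time points did not overlap. All 4 guides were above 0 at day 14 with a median of 2.05 (score change 1.76 ± 0.45, edgeR/RRA adjusted p = 0.214). In vemurafenib the sums at day 14 were 969, 417 and 414 CPM, which overlapped DMSO, and the median against day 0 was 3.31 (edgeR/RRA adjusted p = 0.234). Guide RB1_3 held 54.5 to 85.1% of the RB1 reads in the grown day-14 libraries.

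CDK6 and, in 2 of 3 replicates, CCND1 ended near 0 in the whole-genome library, though neither passed. CDK6 had 1.36, 0.28 and 1.68 CPM at day 14 in DMSO, against 6.95, 7.35 and 12.3 CPM at day 0, with all 4 guides below 0 and a median of -2.96 (edgeR/RRA adjusted p = 0.458). In vemurafenib at day 14, 10 of the 12 CDK6 guide counts were under 10 and 7 were 0. CCND1 had 1.06, 0.79 and 44.4 CPM at day 14 in DMSO, against 13.7, 13.4 and 12.9 CPM at day 0. In replicate 3 in DMSO the guide CCND1_1 had 2009 reads and the other 3 guides had 0. The median was -6.37 (edgeR/RRA adjusted p = 0.291), and this value depends on the counts of 0. Vemurafenib against DMSO gave CCND1 a median of 4.45 with all 4 guides above 0 (edgeR/RRA unadjusted p = 0.00155, adjusted p = 0.562), but the gene score changed by 0.44 ± 0.70. The vemurafenib libraries had 4.03, 0.53 and 144 CPM, of which the highest held 4857 reads of CCND1_1.

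CCNE1, measured with 4 guides, passed in none of the 6 comparisons. It had 42.9, 42.0 and 39.4 CPM at day 0, 68.2, 62.4 and 31.1 CPM at day 8 in vemurafenib and 63.6, 50.2 and 37.7 CPM at day 8 in DMSO. At day 14 it had 77.0, 282 and 20.0 CPM in vemurafenib and 97.2, 89.9 and 33.1 CPM in DMSO. The treated and untreated libraries overlapped at both times, and CCNE1_3, singled out after its values were seen, made up to 95.9% of the reads in 1 vemurafenib library. The median of vemurafenib against DMSO at day 14 was -0.34 (edgeR/RRA adjusted p = 0.951). CDK2 was also carried by single guides in this library, with 391 CPM in replicate 2 in vemurafenib, of which CDK2_1 made 88.7%, against 309 CPM in replicate 2 in DMSO.

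The median of a gene had the same sign in both libraries in MED12 KO cells for 8 of 9 genes in DMSO growth at day 14, the exception being CDK4, and for 6 of 9 in vemurafenib against DMSO at day 14, the exceptions being CDKN2A, CDKN2C and DYRK1A. The CDK2 median of vemurafenib against DMSO was negative in both libraries at both times, at -0.42 and -0.51 in the whole-genome library (edgeR/RRA adjusted p = 0.858 and 1).

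Other genes of the G1 network were taken from 5 lists, of which 17 genes are in the epigenetic library. Beside these, the share of all genes that passed was 10.8% for vemurafenib against DMSO, 18.4% for DMSO growth and 16.3% for vemurafenib against day 0 in MED23 KO cells, and 1.43%, 5.2% and 3.23% at day 14 in MED12 KO cells. CDKN1A, which encodes p21 and was the 1 other CDK inhibitor measured there, passed upward in DMSO growth in MED12 KO cells (median 0.87 at day 8 and 1.35 at day 14, edgeR/RRA adjusted p = 1.97e-06 and 0.000142). It also passed for vemurafenib against day 0 in MED23 KO cells (1.14, 0.00323) and in MED12 KO cells (1.80, 0.000147). Of the 7 genes of the pocket protein, E2F and DREAM list, RBBP4, a histone chaperone of the MuvB core, passed downward in DMSO growth in MED23 KO cells (-1.91, edgeR/RRA adjusted p = 0.0210) and in MED12 KO cells (-2.35, 0.00119, and 0.00657 at day 8). RBBP4 passed upward for vemurafenib against DMSO in MED23 KO cells (2.47, 5.96e-05) and for the difference of that effect from MED12 KO cells (1.55, 0.0440). LIN54, the DNA-binding subunit of MuvB, passed upward in the growth difference between knockouts (1.30, 0.0197), and the other 5 genes of that list passed in none of these 11 comparisons. In any 1 comparison at most 1 of the 7 genes passed.

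At most 1 of the 5 ubiquitin ligase genes passed in any comparison. FBXW7, the adaptor that sends cyclin E to decay, passed downward for vemurafenib against DMSO in MED23 KO cells (-0.76, edgeR/RRA adjusted p = 0.00782) and upward in DMSO growth there (0.99, 0.0251). CUL1, the scaffold of the SCF ligases, passed downward for vemurafenib against day 0 in MED23 KO cells (-0.92, 0.0347). Of the 3 other cyclin-dependent kinases, CDK7, which activates other CDKs, passed downward in DMSO growth in MED23 KO cells (-2.07, 0.00284). The 1 gene of the DYRK list did not pass. In the whole-genome library 0 of the 46 listed genes passed in any comparison.

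Likeness of pattern was measured as the root-mean-square difference in gene-score change from day 0 over the 6 grown groups of both epigenetic screens, for members that passed in at least 2 comparisons of any kind in that library, which for CDK2 were those of drug against DMSO. The genes nearest to RB1 were SMAD4 (0.520), NF2 (0.530) and CDKN1B (0.577), where the median gene lay at 1.58. CDKN1A was nearest to CDKN1B (0.194), followed by CHEK2 and SMAD4. CDKN2C was nearest to UBE2K (0.098), KAT6B and KAT6A, and CDKN2A to SCML2 (0.076), PHF6 and HACE1. DYRK1A was nearest to SMAD2 (0.147), NFE2L2 and RUNX1, CDK2 to ARID4B (0.155), RPL31 and CBLL1, and CDK6 to RNF8 (0.170), H2AFX and DMAP1.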

How the data were processed

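Guide counts are whole numbers per guide and library, as deposited by the authors, with no normalization. Per the labels' protocols, guides were amplified by PCR from genomic DNA. Per the submitters' processing notes, bcl2fastq, HISAT2 and HTSeq were used, and the sources used here give neither their versions and settings nor the guide sequences. Low guides were removed with filterByExpr (counts of 10 and totals of 15 as minimums), and the rest were scaled by TMM and tested with edgeR 4.0.16 (quasi-likelihood; R 4.3.3, limma 3.58.1). Guide p-values were ranked among guides that target genes and combined per gene by robust rank aggregation with an alpha of 0.25, in both directions, over genes with at least 3 tested guides. The gene p, the lower of both directions after a Bonferroni correction, then had a Benjamini-Hochberg correction across the whole table, and 0.05 was the threshold. Gene scores used a prior of 0.5 CPM. Controls were the guides named AAVS1, CTRL and Zhang, and in the whole-genome library those without a gene.

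The 10 member genes and the 5 gene lists were chosen with earlier results of these data known. Every member is named where measured, single guides were described for members that passed in a comparison, and list genes were named where they passed, except those said to be singled out after their values were seen. The alternatives were RLE (relative log expression) scaling in edgeR, scaling on control guides, no filter on low counts, DESeq2 (1.42.0) in place of edgeR, counts summed per gene, the replicate number as a block, and leaving out each library.

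Pairing by replicate number was checked from correlations of deviations from group means. In MED12 KO cells same-numbered grown libraries correlated at 0.640 to 0.899 with the epigenetic and 0.758 to 0.919 with the whole-genome library, and 0.332 or more with day 0, so the numbers pair the libraries. In MED23 KO cells day 0 and vemurafenib libraries correlated at 0.300 to 0.320 and pair by number. DMSO libraries 1 and 2 there did not follow their numbers (-0.188 to -0.148), so comparisons with them cannot be paired by number. The main tests and the SE used no pairing in any screen. They therefore ignore the pairing in MED12 KO cells, and the replicate block was an alternative only. The procedure was tested on simulated data. At a log2 change of 1 it found 98.1% of changed genes for vemurafenib against DMSO at day 14 in MED23 KO cells and 65.9% in MED12 KO cells (1115 genes each). Every guide of a changed gene was given the same change, whereas real guides of a gene differed widely. These shares can therefore overstate what would be found in the real libraries.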

Additional observations from a re-analysis of the deposited data

Results flagged for a closer look

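The effect of vemurafenib on CDK2 guides at day 14 had opposite signs in the 2 knockouts. The gene score changed by 0.62 in MED23 KO cells, where all 3 treated libraries lay above all 3 DMSO libraries, and by -0.66 in MED12 KO cells, where all 3 lay below. Of all genes, 35.8% were separated upward in MED23 KO cells and 3.68% downward in MED12 KO cells. The difference was 1.28 with an SE of 0.17 (n = 3 libraries per group). It did not pass when tested directly (edgeR/RRA adjusted p = 0.227), and it passed with counts summed per gene (edgeR adjusted p = 0.0439). Among all genes, summed counts called 29 upward and 28 downward. Vemurafenib was at 1 µM in MED23 KO cells and 2 µM in MED12 KO cells, so knockout and concentration cannot be told apart. Groups of 3 libraries are too small for the test of single outlying samples, and none was run.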

How the results depend on the processing

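Counts of members that passed moved by over 1.5 times in 21 cases, of which the 10 that leave out 1 library are given as ranges below. With counts summed per gene they were 6 for vemurafenib against DMSO in MED23 KO cells, 0 at day 8 in MED12 KO cells, 2 for the difference of the drug effect between knockouts, 1 for the difference in growth, and, in the whole-genome library, 1 for DMSO growth at day 14 and 1 for vemurafenib against day 0. In the same order, the genes of the whole library called with summed counts were 244 up and 41 down, 0 and 0, 29 and 28, 7 and 144, 245 and 31, and 3396 and 158. For vemurafenib against day 0, scaling on control guides gave 3 members in MED23 KO cells and 2 in MED12 KO cells, where DESeq2 also gave 2. Among all genes DESeq2 called 21 up and 11 down there, against 25 and 11 with edgeR. With the replicate number as a block the drug effect at day 14 minus day 8 in MED12 KO cells gave 1 (RB1), as did the drug difference between knockouts (DYRK1A, edgeR/RRA adjusted p = 0.0125). Among all genes the block called 10 up and 2 down in the first of these comparisons, and 43 up and 13 down in the second. The second includes MED23 KO DMSO libraries that do not pair by number. In MED23 KO cells the block changed no member's call for vemurafenib against day 0, where the numbers pair the libraries, and for vemurafenib against DMSO, where they do not, it gave CCND1 an adjusted p of 0.0367. As a hint from the data alone, DMSO libraries 1 and 2 correlated best with the other's number, at day 0 (0.343 and 0.341) and in vemurafenib (0.283 and 0.316). Leaving out 1 library gave 3 to 4 members for DMSO growth at day 14, 4 to 5 at day 8, 2 to 5 for vemurafenib against day 0 and 0 to 1 for vemurafenib against DMSO at each time in MED12 KO cells. In MED23 KO cells it gave 4 to 6 for growth, 4 to 5 for vemurafenib against day 0 and 2 to 3 for vemurafenib against DMSO, and for the drug difference between knockouts 0 to 1. All-gene calls moved as well. In MED12 KO cells, vemurafenib against day 0 without replicate 2 in vemurafenib had 19 up and 10 down, against 25 and 11. Vemurafenib against DMSO at day 14 without replicate 1 in DMSO had 9 and 2, against 10 and 6. Other runs are not listed here. Scaling on control guides reversed medians in MED23 KO cells, to -0.078 for CDKN2A, -0.098 for CDKN2C and -0.195 for DYRK1A in growth, and to -0.503 for CDKN2A and -0.121 for CDKN2C in vemurafenib against day 0. It moved the median of all genes by up to -1.722 (whole-genome library, vemurafenib against day 0), and left fewer calls, with 43 up and 23 down on control guides against 67 and 115 for vemurafenib against day 0 in MED23 KO cells, 48 and 63 against 64 and 141 for DMSO growth there, and, in MED12 KO cells, 19 and 4 against 25 and 11 for vemurafenib against day 0 and 32 and 33 against 33 and 55 for DMSO growth at day 8. The cause was not tested for the other changes. In the whole-genome library up to 18.2% of guides in a library had under 10 reads, which limits what depletion can be measured.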
